A study of Arabidopsis thaliana with 8 samples.

Results

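The SAUR genes (small auxin up RNA) of Arabidopsis thaliana outside the SAUR19 to SAUR24 cluster were followed in the poly(A) polymerase mutant paps1-1 and in its wild type. They were taken as 57 loci, and a gene was read from the array probes whose name starts with its locus. 56 of the 57 had a probe, 1 each, and 48 were tested among 21443 loci (25665 loci had a probe). The study hybridised 8 Agilent arrays in 2 colours, each with paps1-1 RNA in one colour and WT RNA in the other. Both genotypes were in the Ler ecotype, grew at 21 °C in long days, and differed in the paps1-1 allele of PAPS1. Of the arrays, 4 compared paps1-1 with WT whole seedlings, roots included, from MS plates; the paps1-1 seedlings were 11 days old and the WT seedlings 9 days old, which the submitters chose to match the stage of the first leaves. The other 4 compared paps1-1 with WT main inflorescences, without the open flowers, from plants of 30 days on soil, so that age was the same in both genotypes there. The design text calls the 4 arrays of a tissue biological replicates, without saying whether material was pooled. A single allele stands for the mutant, and whole organs of many cell types were ground, so fewer cells of a type and less RNA per cell cannot be told apart in any result below.

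SAUR proteins are small, and many of their genes are switched on within minutes of auxin. The best studied of them bind and inhibit clade D protein phosphatases (PP2C.D), which keeps plasma membrane proton ATPases active, acidifies the cell wall and lets the cell expand. Many SAUR genes arose by tandem duplication and lie side by side in the genome. PAPS1 is a nuclear poly(A) polymerase, an enzyme that gives messenger RNAs their tail of adenines, and paps1-1 is known as an allele that lowers its activity.

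Every ratio below is the log2 ratio of paps1-1 over WT signal ± SE, from 4 arrays a tissue. Ratios are relative, since each array was centred on its own probes. A gene was called higher or lower when its limma p, adjusted by Benjamini-Hochberg over every locus tested, was under 0.05. Levels are log2 intensities of 1 probe in 1 sample and are compared only within that probe. PAPS1 itself (AT1G17980) was not called in either tissue, with a log2 ratio of 0.0023 ± 0.05 in seedlings and 0.10 ± 0.05 in inflorescences. The signal over background had array medians of 2.66 to 5.02 in red and 3.35 to 5.51 in green. All 17 tested root markers and all 16 photosynthetic markers were well above background in both genotypes on the 4 seedling arrays, as were all 10 tapetum markers and all 9 tested pollen markers on the 4 inflorescence arrays. Each tissue had its own slide, so that wherever tissues are compared, slide and tissue cannot be told apart. The primer used for labelling is not given in the sources used here, and its part in the ratios was not tested. Whether a probe tells its SAUR gene from near-identical family members was not tested either.

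The median ratio of the family was below 0 in both tissues, and lower in seedlings than in inflorescences. That order held for the 16 tested genes of the 3 tandem clusters described below (medians of −0.81 and −0.36). Over the other 32 tested members the medians were alike, −0.13 in seedlings and −0.16 in inflorescences. In seedlings 29 of the 48 tested SAUR genes were lower, 6 were higher and 13 were not called, where 57.9% of all loci tested were called (29.3% lower and 28.6% higher). The median of the members was −0.34, and it was −0.32, −0.36, −0.39 and −0.40 on the 4 arrays, while the median of all loci was −0.0039. In inflorescences 23 were lower, 2 were higher and 23 were not called, where 53.7% of all loci were called (27.5% lower and 26.2% higher). There the median was −0.21, with −0.24, −0.14, −0.17 and −0.28 on the 4 arrays, against 0.00094 over all loci. In seedlings 7 members were called at least 2-fold lower and 18 at least 1.5-fold lower, where 0.723% and 4.08% of all loci were. In inflorescences no member was 2-fold lower and 5 were at least 1.5-fold lower, where 0.480% and 3.47% of all loci were. The levels of paps1-1 lay below those of WT with no overlap in 24 of the 29 members called lower in seedlings and in 17 of the 23 called lower in inflorescences. Over all loci, 21.1% were called lower with levels apart in seedlings and 21.1% in inflorescences, which was 72.1% of the loci called lower in seedlings and 76.8% of those called lower in inflorescences.

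**Figure D1:**
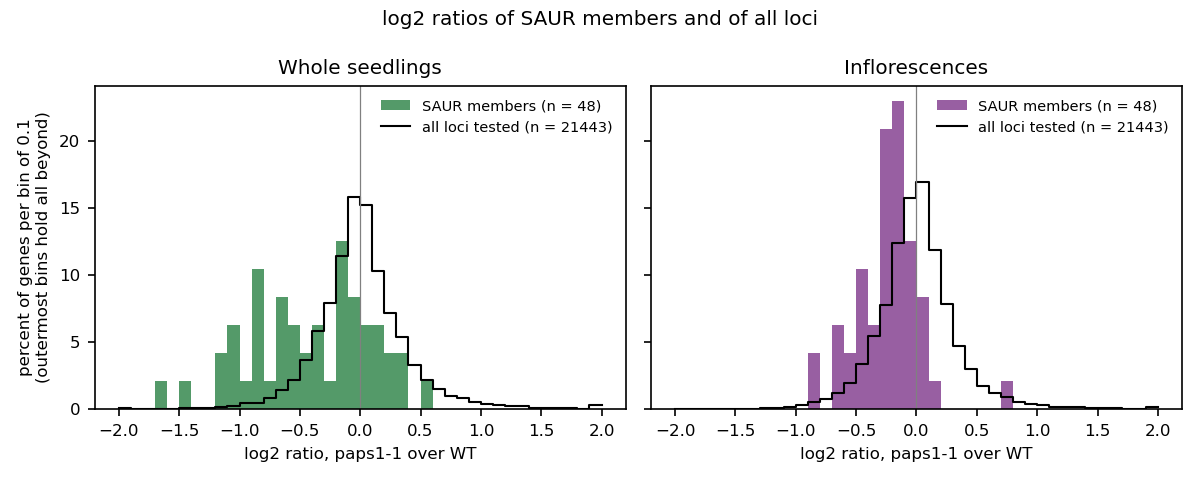
Log2 ratios of paps1-1 over WT for the 48 tested SAUR members (bars) and for all 21443 loci tested (line), as the percent of genes in each bin of 0.1 log2, in seedlings (left) and inflorescences (right). The members spread to −1.61 in seedlings, where their median is −0.34, while in inflorescences they lie between −0.90 and 0.79 with a median of −0.21.

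The chromosome 1 cluster runs from AT1G29420 to AT1G29510 and holds SAUR61 to SAUR66, AT1G29490 and SAUR68. Its 7 tested genes were all lower in paps1-1 seedlings, with a median of −0.85 and a range of −1.43 to −0.62. SAUR61 and SAUR62 among them were kept for testing through WT alone, the genotype in which they were higher. Only WT had them above background on all 4 arrays of a tissue, so their calls depend in part on the filter. Both count among the 29 members called lower in seedlings. In inflorescences 5 of the 7 were lower, with a median of −0.28. SAUR63, which promotes elongation of hypocotyls and stamen filaments, changed most in seedlings: its log2 intensity was 9.77, 10.05, 9.87 and 9.94 in the paps1-1 seedlings, against 11.28, 11.30, 11.35 and 11.40 in the WT seedlings. In inflorescences SAUR63 stood at 7.93, 8.14, 7.85 and 7.87 in paps1-1, against 8.61, 8.38, 8.54 and 8.31 in WT. The genotypes did not overlap in either tissue, and SAUR63 was lower by a log2 ratio of −1.43 ± 0.08 in seedlings (2.69-fold lower, limma adjusted p = 4.52e-07) and −0.51 ± 0.08 in inflorescences (1.43-fold lower, adjusted p = 0.000297).

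The neighbours SAUR64 and SAUR65 followed SAUR63 in seedlings. SAUR64 had log2 ratios of −1.30, −1.16, −1.19 and −1.10 on the 4 seedling arrays, and SAUR65 had −1.27, −0.96, −1.19 and −1.08. Both were more than 2-fold lower there, with estimates of −1.19 ± 0.07 for SAUR64 and −1.12 ± 0.08 for SAUR65. In inflorescences SAUR65 was lower at −0.44 ± 0.08, with every array below 0. SAUR64 was lower at −0.21 ± 0.07 (limma adjusted p = 0.0356) with overlapping levels, since replicate 2 stood at 0.12 and the other arrays at −0.34 to −0.31. The call of SAUR64 in inflorescences was lost without inflorescence replicate 1, 3 or 4 (adjusted p = 0.135 to 0.176), without seedling replicate 3 (adjusted p = 0.0504) and with median centring (adjusted p = 0.114).

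SAUR66 and SAUR68, at the far end of the cluster, fell by similar amounts in seedlings, −0.85 ± 0.08 and −0.81 ± 0.07, with levels apart in both. In inflorescences SAUR66 was lower at −0.57 ± 0.08, and SAUR68 at −0.28 ± 0.07, a call that ended without inflorescence replicate 4 (−0.20, adjusted p = 0.0601). SAUR61 and SAUR62, of which SAUR62 is required for pollen tube growth, were above background on fewer arrays than the other tested genes of the cluster. In seedlings their paps1-1 signal was well above background on 3 of 4 arrays each, and they were lower by −0.70 ± 0.07 for SAUR61 and −0.62 ± 0.05 for SAUR62. In inflorescences paps1-1 was above background on 2 arrays for SAUR61 and 1 for SAUR62, against 4 arrays in WT for both, and neither was called, at −0.16 ± 0.07 (adjusted p = 0.0829) and −0.11 ± 0.05 (adjusted p = 0.0623). With the log ratio of the scanner software both were called lower there, at −0.96 for SAUR61 and −1.01 for SAUR62. SAUR61 was also called without inflorescence replicate 2 (adjusted p = 0.0208) or seedling replicate 1 (adjusted p = 0.0458). SAUR62 was also called with normexp offset 0 (−0.31, adjusted p = 0.0162), with the deposited value table (−0.30, adjusted p = 0.0175) and without seedling replicate 1 (adjusted p = 0.0347). AT1G29490 was not above background in any sample and was not tested.

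**Figure D2:**
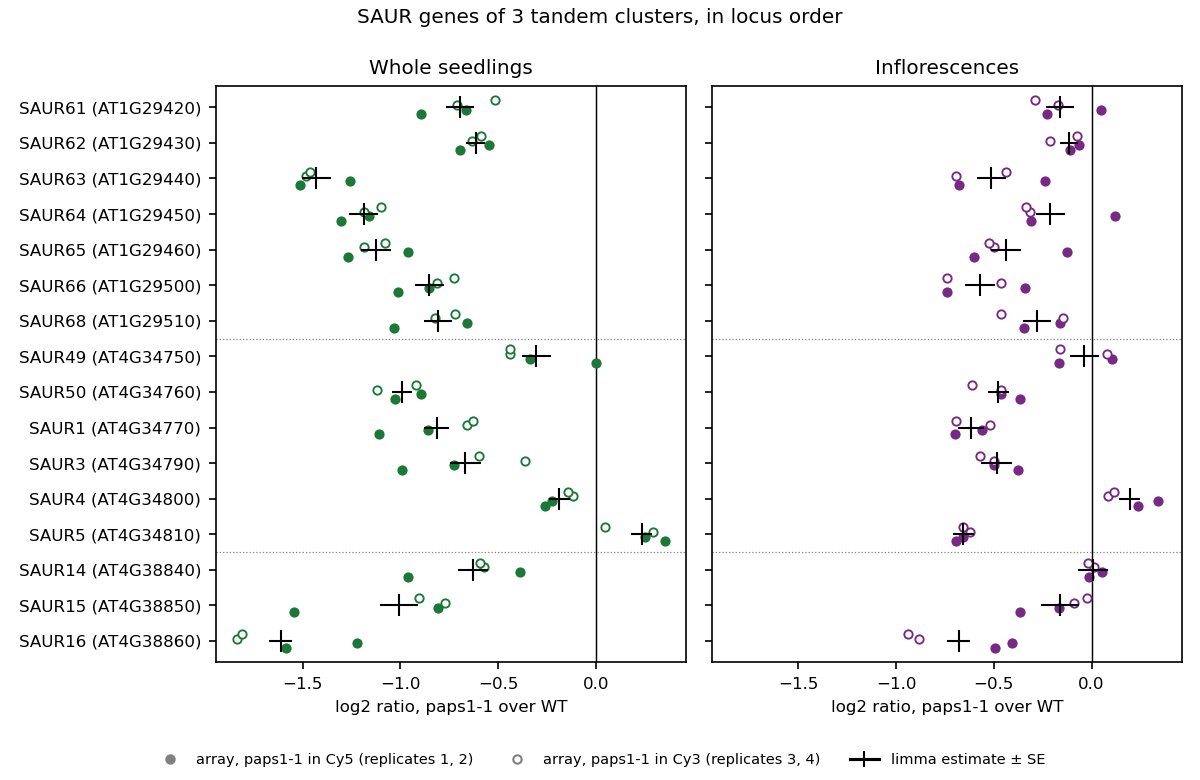
Log2 ratio of paps1-1 over WT on each array for the 16 tested genes of the 3 tandem clusters, in locus order, in seedlings (left) and inflorescences (right). Filled points are arrays with paps1-1 in Cy5, open points arrays with paps1-1 in Cy3, black marks the limma estimate ± SE and dotted lines the borders between clusters. Apart from SAUR5, and from SAUR49 on 1 array, every point lies below 0 in seedlings, while in inflorescences SAUR49 and SAUR14 lie near 0 and SAUR4 above it.

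The first chromosome 4 cluster, AT4G34750 to AT4G34810, did not move as one. Of its 6 tested genes, 5 were lower and 1 was higher in paps1-1 seedlings (median −0.49), and 4 were lower and 1 was higher in inflorescences (median −0.48). SAUR50, SAUR1 and SAUR3 were lower in both tissues. SAUR50, one of the SAUR genes that light induces in opening cotyledons, stood at 11.18, 11.24, 10.97 and 11.16 in paps1-1 seedlings, against 12.21, 12.14, 12.09 and 12.08 in WT seedlings. In inflorescences SAUR50 stood at 10.92, 10.74, 10.61 and 10.79 in paps1-1, against 11.29, 11.20, 11.08 and 11.40 in WT. Its genotypes were apart in both tissues, with −0.99 ± 0.05 in seedlings (1.99-fold lower, limma adjusted p = 4.49e-07) and −0.48 ± 0.05 in inflorescences (1.39-fold lower, adjusted p = 4.39e-05).

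SAUR1 was lower at −0.81 ± 0.06 in seedlings and −0.62 ± 0.06 in inflorescences, and SAUR3 at −0.67 ± 0.08 and −0.48 ± 0.08. Levels of SAUR1 were apart in both tissues. SAUR3 levels were apart in inflorescences and overlapped in seedlings, where its 4 arrays gave −0.99, −0.73, −0.36 and −0.60. SAUR49, the first gene of the row, was lower in seedlings at −0.30 ± 0.07 (adjusted p = 0.00554), with 1 array at 0.00 and overlapping levels, and was not called in inflorescences at −0.04 ± 0.07. SAUR2, between SAUR1 and SAUR3, was not above background in any sample.

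The last 2 genes of the row moved in opposite directions between the tissues. SAUR5 had log2 intensities of 8.52, 8.50, 8.50 and 8.28 in paps1-1 seedlings, against 8.17, 8.25, 8.21 and 8.23 in WT seedlings. In inflorescences SAUR5 had 8.10, 8.15, 8.02 and 8.08 in paps1-1, against 8.79, 8.81, 8.64 and 8.74 in WT. Levels were apart in both tissues and in opposite directions: SAUR5 was higher at 0.24 ± 0.05 in seedlings (limma adjusted p = 0.00363) and lower at −0.66 ± 0.05 in inflorescences (adjusted p = 7.2e-06). The difference, seedlings minus inflorescences, was 0.89 ± 0.08 (adjusted p = 3.6e-05). With median centring in place of loess the seedling value of SAUR5 was 0.09 and no longer called (adjusted p = 0.296). SAUR4, next to it, went the other way, lower at −0.19 ± 0.05 in seedlings and higher at 0.19 ± 0.05 in inflorescences. Its levels overlapped in both tissues. The seedling call of SAUR4 was lost without seedling replicate 1 (adjusted p = 0.0542) or 2 (adjusted p = 0.0667), and its inflorescence call without inflorescence replicate 1 (adjusted p = 0.0538) or 2 (adjusted p = 0.0823) and with median centring (adjusted p = 0.277).

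The second chromosome 4 cluster, AT4G38825 to AT4G38860, held the largest decrease among the 48 tested members. Its 3 tested genes were all lower in seedlings (median −1.01), and 1 of the 3 was lower in inflorescences (median −0.16). SAUR16, a cotyledon gene that light induces together with SAUR14 and SAUR50, had log2 intensities of 9.98, 10.29, 9.94 and 10.12 in paps1-1 seedlings, against 11.57, 11.51, 11.77 and 11.93 in WT seedlings. In inflorescences SAUR16 had 8.27, 8.46, 8.16 and 8.32 in paps1-1, against 8.77, 8.87, 9.04 and 9.25 in WT. Levels were apart in both tissues, and SAUR16 was lower by −1.61 ± 0.06 in seedlings (3.06-fold lower, limma adjusted p = 8.23e-08) and by −0.68 ± 0.06 in inflorescences (1.60-fold lower, adjusted p = 9.65e-06). The arrays with paps1-1 in Cy3 gave the larger SAUR16 changes in both tissues, −1.83 and −1.81 in seedlings against −1.58 and −1.22 with paps1-1 in Cy5, and the fit holds a dye term for this.

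SAUR15, first described as the early auxin gene SAUR-AC1, stood at 8.69, 9.24, 9.40 and 9.37 in paps1-1 seedlings, against 10.23, 10.04, 10.18 and 10.27 in WT seedlings. All paps1-1 values were below all WT values, and SAUR15 was lower by −1.01 ± 0.10 (2.01-fold lower, limma adjusted p = 1.59e-05). In inflorescences it was not called, at −0.16 ± 0.10 (adjusted p = 0.188), but was called lower when each tissue was fitted alone (adjusted p = 0.0274), without seedling replicate 1 (adjusted p = 0.0284) and with the log ratio of the scanner software (−0.62, adjusted p = 0.00905). SAUR14 was lower in seedlings at −0.63 ± 0.08 with levels apart. In inflorescences its arrays lay at −0.02, 0.06, 0.01 and −0.02, with an estimate of 0.01 ± 0.08. SAUR13, the remaining gene of this row, had no probe.

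Genes beside and between the cluster members that are not SAUR genes were called in mixed directions. They were taken as the 3 genes on each side and those in between, by gene order in the TAIR10.1 RefSeq annotation. Loci in general were called in both directions too. Of all loci tested, 29.3% were lower and 28.6% higher in seedlings, and 27.5% were lower and 26.2% higher in inflorescences. Around the chromosome 1 cluster 5 of 10 such genes were tested: in seedlings 1 was higher and 1 lower, and in inflorescences 2 were higher and none lower. AT1G29520, next to SAUR68, was higher at 0.73 ± 0.05 in seedlings and 1.04 ± 0.05 in inflorescences, while AT1G29470, inside the row, was not called at −0.0031 ± 0.06 and 0.10 ± 0.06. Around the first chromosome 4 cluster 5 of 6 were tested, of which 1 was higher and 2 lower in each tissue. ASE2, which codes for an enzyme of purine synthesis and lies next to SAUR49, was lower at −0.65 ± 0.06 in seedlings and −0.72 ± 0.06 in inflorescences. Around the second 6 of 8 were tested, and none was lower in either tissue, while 2 were higher in seedlings and 3 in inflorescences.

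Outside the 3 tandem clusters, 32 members were tested, and 14 of them were lower and 5 higher in seedlings (median −0.13), against 15 lower and 1 higher of the 16 tandem genes (median −0.81). In inflorescences 13 of the 32 were lower and 1 was higher (median −0.16), against 10 lower and 1 higher of the 16 (median −0.36). The shares over all loci were 29.3% lower and 28.6% higher in seedlings, and 27.5% lower and 26.2% higher in inflorescences. Smaller groups of neighbouring genes stood on both sides of the split between tandem and other members. All 3 tested genes of the chromosome 3 row, SAUR26, SAUR28 and SAUR29, were lower in seedlings with a median of −1.01. The 3 genes of the chromosome 2 row, SAUR6, SAUR7 and SAUR12, were lower too, with a median of −0.47. Of the 6 genes that lie in pairs (SAUR51 and SAUR52, SAUR53 and SAUR54, SAUR70 and SAUR76), none was lower in either tissue and SAUR70 was higher in seedlings.

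**Figure D3:**
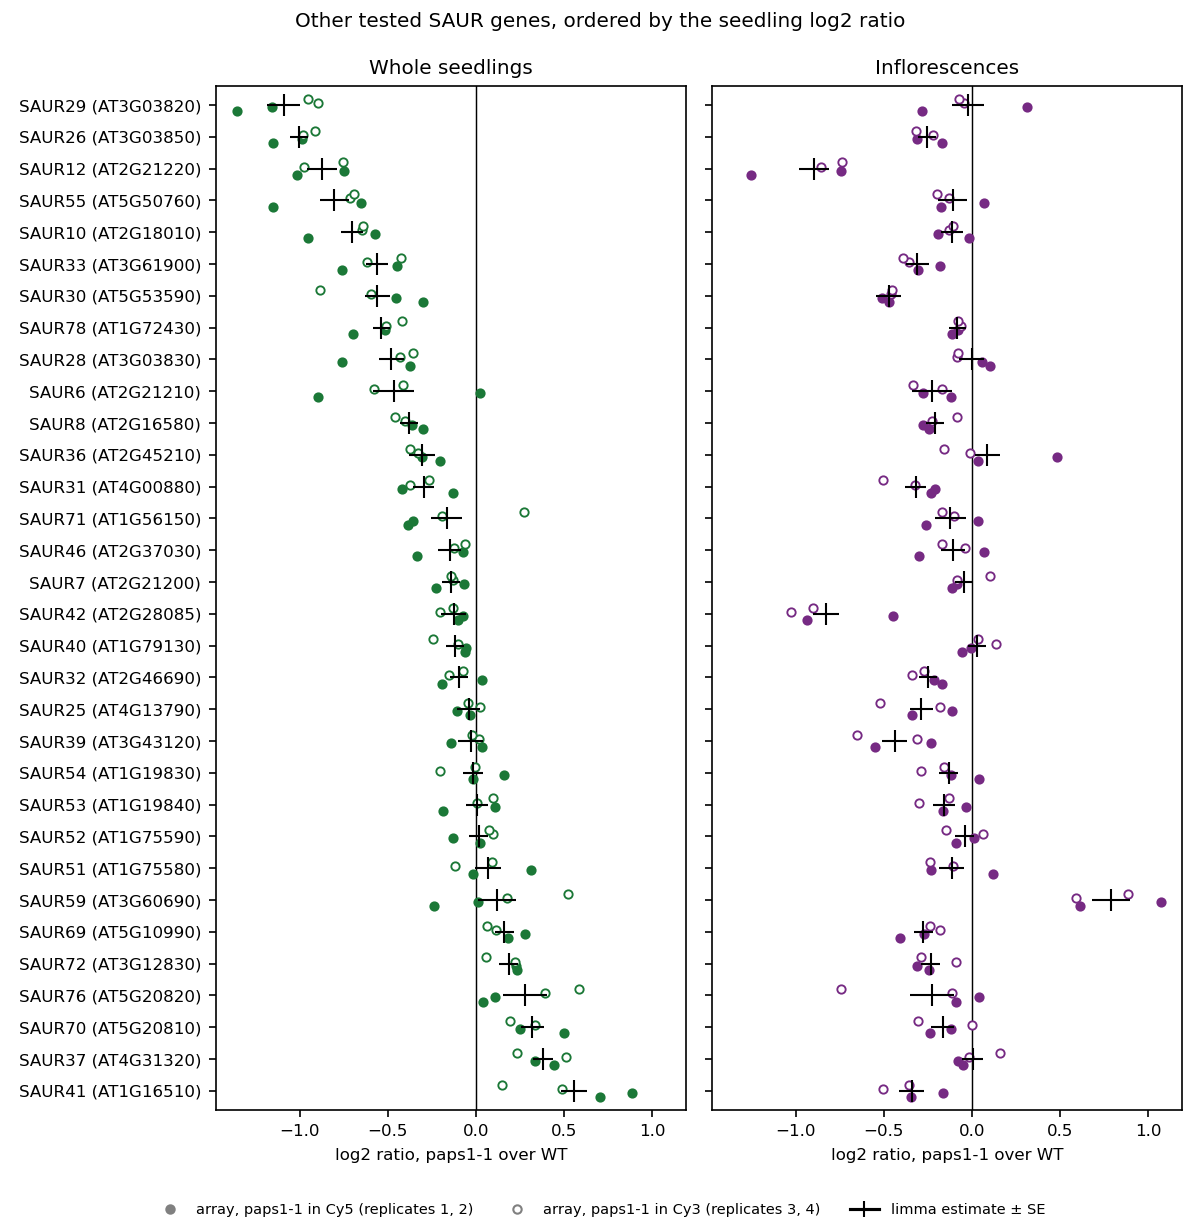
Log2 ratio of paps1-1 over WT on each array for the 32 tested SAUR members outside the 3 tandem clusters, ordered by the seedling estimate, in seedlings (left) and inflorescences (right). Filled points are arrays with paps1-1 in Cy5, open points arrays with paps1-1 in Cy3 and black marks the limma estimate ± SE. The seedling values run from −1.09 (SAUR29) to 0.55 (SAUR41), while in inflorescences SAUR12 and SAUR42 stand lowest and SAUR59 alone stands well above 0.

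SAUR29, in the chromosome 3 row, showed the widest gap between tissues among the 48 tested members. Its log2 intensity was 9.97, 10.16, 10.30 and 10.38 in paps1-1 seedlings, against 11.33, 11.32, 11.20 and 11.34 in WT seedlings. In inflorescences SAUR29 stood at 7.75, 8.21, 7.74 and 7.73 in paps1-1, against 8.04, 7.90, 7.78 and 7.80 in WT. Levels were apart in seedlings and overlapped in inflorescences. SAUR29 was lower by −1.09 ± 0.09 in seedlings (2.13-fold lower, limma adjusted p = 7.19e-06) and not called at −0.02 ± 0.09 in inflorescences (adjusted p = 0.865). The difference was −1.07 ± 0.13 (adjusted p = 0.000283). SAUR29 was called lower in inflorescences without replicate 2 of that tissue, at −0.18 (adjusted p = 0.0365).

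SAUR26, in the same row, belongs to a SAUR group known for growth responses to temperature. Its seedling arrays gave −1.15, −0.99, −0.98 and −0.91, and it was lower by −1.01 ± 0.05 there (2.01-fold lower) and by −0.25 ± 0.05 in inflorescences, with levels apart in both tissues. The inflorescence call of SAUR26 was lost with median centring (adjusted p = 0.171). Its inflorescence ratio ran from −0.91 to −0.20 over the alternatives, so its size there depends on the processing. SAUR27, another member of that temperature group, was not above background in any sample.

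SAUR12, at the end of the chromosome 2 row, fell by like amounts in both tissues. In seedlings it had log2 intensities of 7.07, 7.16, 7.31 and 7.27 in paps1-1, against 8.09, 7.91, 8.28 and 8.03 in WT. In inflorescences SAUR12 had 9.02, 8.98, 8.96 and 9.08 in paps1-1, against 10.27, 9.72, 9.82 and 9.81 in WT. Levels were apart in both tissues, and the ratios were −0.88 ± 0.08 in seedlings (1.83-fold lower, limma adjusted p = 1.54e-05) and −0.90 ± 0.08 in inflorescences (1.86-fold lower, adjusted p = 1.62e-05), which made it the member with the largest decrease in inflorescences. The difference was 0.02 ± 0.12 and not called. It stood at −0.69 and was called (adjusted p = 0.012) with the log ratio of the scanner software.

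Among single genes, SAUR55 and SAUR10 had the largest decreases in seedlings. SAUR55 was lower at −0.80 ± 0.08, with replicate 1 at −1.15 and the other arrays at −0.72 to −0.65, and this call ended with the log ratio of the scanner software (−0.84, adjusted p = 0.119). In inflorescences SAUR55 was not above background in either genotype. SAUR10, which is expressed in growing stems and branches, was lower at −0.70 ± 0.06 in seedlings with levels apart and was not called in inflorescences at −0.11 ± 0.06. It was called lower there with the log ratio of the scanner software (−0.42, adjusted p = 0.00362) and without seedling replicate 1 (adjusted p = 0.0464).

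SAUR42, SAUR30 and SAUR39 had the largest decreases of single genes in inflorescences. SAUR42 stood at 7.66, 8.03, 7.50 and 7.85 in paps1-1 inflorescences, against 8.60, 8.48, 8.52 and 8.75 in WT inflorescences, with no overlap, and was lower by −0.83 ± 0.07 (1.77-fold lower, limma adjusted p = 1.12e-05). SAUR30 was lower in both tissues, at −0.56 ± 0.07 in seedlings and −0.47 ± 0.07 in inflorescences. SAUR39 was lower at −0.44 ± 0.07 in inflorescences, with overlapping levels, and lost its call with normexp offset 0 (adjusted p = 0.0943) and median centring (adjusted p = 0.122). Neither SAUR42 nor SAUR39 was above background in seedlings, where SAUR42 was not called but was called lower with normexp offset 0, the scanner's log ratio, the deposited value table and without inflorescence replicate 2 (adjusted p = 0.000137 to 0.0408).

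SAUR59 and SAUR4 were the 2 members called higher in inflorescences, SAUR59 by more. SAUR59 had log2 intensities of 9.39, 9.70, 9.21 and 9.58 in paps1-1 inflorescences, against 8.78, 8.63, 8.62 and 8.69 in WT inflorescences. In seedlings SAUR59 had 9.81, 10.06, 10.05 and 10.28 in paps1-1, against 10.05, 10.04, 9.87 and 9.76 in WT. The genotypes were apart in inflorescences, where it was higher by 0.79 ± 0.11 (1.73-fold higher, limma adjusted p = 0.000182). They overlapped in seedlings, where SAUR59 was not called at 0.12 ± 0.11 and the 4 arrays ran from −0.24 to 0.52. The difference was −0.67 ± 0.15 (adjusted p = 0.00837).

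SAUR41, SAUR72 and SAUR69 were higher in paps1-1 seedlings and lower in paps1-1 inflorescences, as SAUR5 was. SAUR41 and SAUR72 belong to a group of SAUR genes that promotes cell expansion when overexpressed. SAUR41 had log2 intensities of 9.48, 9.78, 9.65 and 9.32 in paps1-1 seedlings, against 8.78, 8.90, 9.16 and 9.17 in WT seedlings. In inflorescences SAUR41 had 11.53, 11.75, 11.26 and 11.34 in paps1-1, against 11.87, 11.91, 11.76 and 11.69 in WT. Levels were apart in seedlings and overlapped in inflorescences. SAUR41 was higher by 0.55 ± 0.07 in seedlings (1.47-fold higher, limma adjusted p = 0.000118), the largest increase among the tested members there, and lower by −0.34 ± 0.07 in inflorescences (1.27-fold lower, adjusted p = 0.00289). The difference was 0.90 ± 0.10 (adjusted p = 0.000199).

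SAUR72 and SAUR69 showed the same directions at a smaller size. SAUR72 was at 0.18 ± 0.05 in seedlings and −0.23 ± 0.05 in inflorescences. SAUR69 was at 0.16 ± 0.05 in seedlings and −0.27 ± 0.05 in inflorescences. Levels overlapped in seedlings and were apart in inflorescences for both genes. The seedling call of SAUR72 ended with median centring (0.02, adjusted p = 0.857) and without seedling replicate 2 (adjusted p = 0.0599) or 3 (adjusted p = 0.0661). That of SAUR69 ended with median centring (adjusted p = 0.0683), with the log ratio of the scanner software (adjusted p = 0.077) and without seedling replicate 1, 2 or 3 (adjusted p = 0.0582 to 0.151). The inflorescence call of SAUR69 also ended with median centring (adjusted p = 0.0528).

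**Figure D4:**
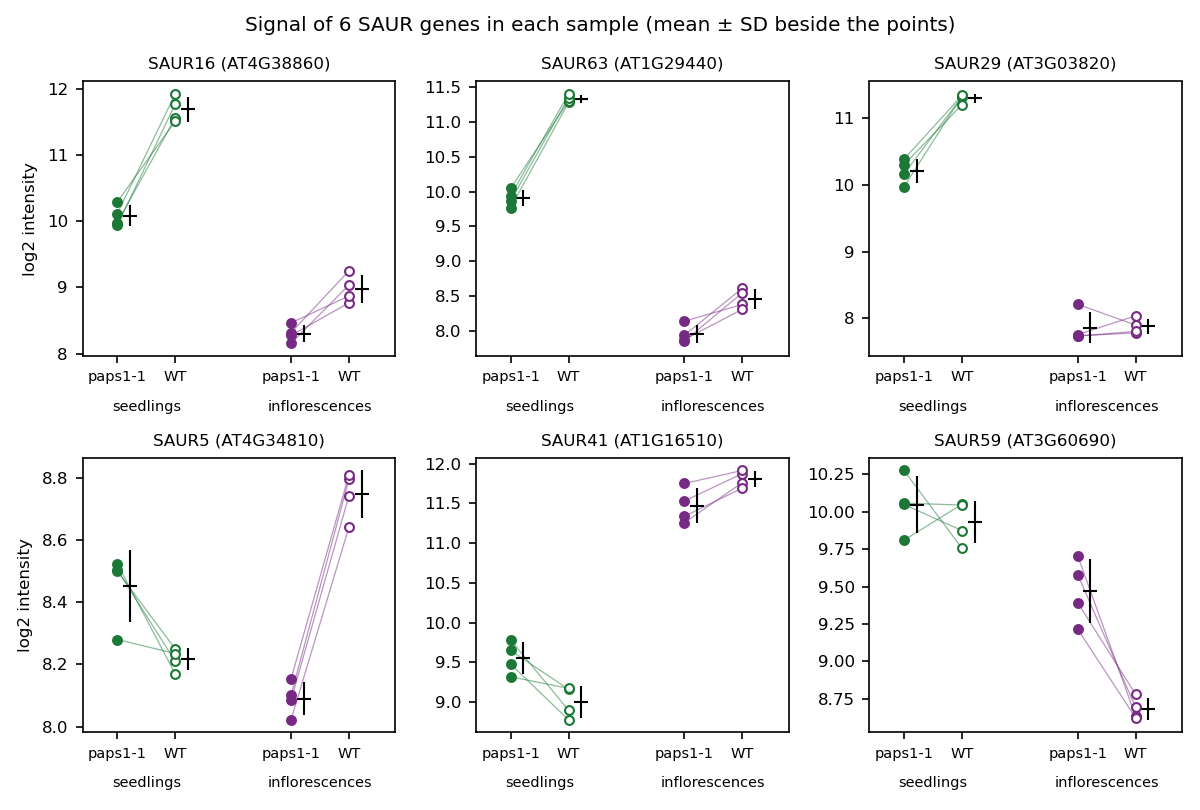
Log2 intensity of 6 SAUR genes in every sample, with paps1-1 (filled) left of WT (open) in seedlings (green) and inflorescences (purple); lines join the samples of 1 array and black marks are means ± SD (n = 4). SAUR16 and SAUR63 are lower in paps1-1 in both tissues and SAUR29 in seedlings, SAUR5 and SAUR41 are higher in paps1-1 seedlings and lower in paps1-1 inflorescences, and SAUR59 is higher in paps1-1 inflorescences.

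The other 20 tested members are given by their counts and range. In seedlings 8 of them were lower, 2 were higher and 10 were not called, between −0.56 and 0.38, where 29.3% of all loci were lower and 28.6% higher. In inflorescences 5 were lower and 15 were not called, between −0.32 and 0.09, where 27.5% of all loci were lower and 26.2% higher. The 5 of 20 lower in inflorescences were thus no more than the share over all loci. The 2 higher in seedlings were SAUR37, at 0.38 ± 0.06, and SAUR70, at 0.32 ± 0.07, named here after their values were seen. Neither genotype was above background for SAUR28, SAUR37, SAUR40 and SAUR55 in inflorescences or for SAUR25, SAUR39 and SAUR42 in seedlings. SAUR2, SAUR9, SAUR27, SAUR43, SAUR45 and AT1G29490 were above background in no sample, and SAUR38 and SAUR77 on too few arrays to be tested. SAUR38 was above background on none of the 4 arrays in paps1-1 seedlings, against 3 of 4 in WT seedlings, while its mean log2 intensity was 6.42 in paps1-1 and 6.39 in WT, with overlapping levels. SAUR77 was above background on 2 arrays in each genotype in seedlings. Among the 44 members above background in seedlings the median ratio was −0.48 (29 lower and 6 higher, where 32.5% and 31.6% of the loci kept that way were), and among the 44 above background in inflorescences it was −0.22 (23 lower and 2 higher, where 29.2% and 27.6% of loci were).

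The tissues differed in 27 of the 48 members, 19 of them with a lower ratio in seedlings than in inflorescences and 8 with a higher one, where the difference was called for 32.2% of all loci (15.9% lower and 16.3% higher). The tandem genes made up much of the lower set: the difference was called lower for 6 of 7 genes of the chromosome 1 cluster, 2 of 6 of the first chromosome 4 cluster and 3 of 3 of the second, beside 3 of 3 of the chromosome 3 row. SAUR16 differed by −0.93 ± 0.08, SAUR63 by −0.92 ± 0.11 and SAUR64 by −0.98 ± 0.11. SAUR66 was the exception in the chromosome 1 cluster, at −0.28 ± 0.11 (limma adjusted p = 0.0695), and its difference was called without inflorescence replicate 4 (−0.36, adjusted p = 0.0344). With the scanner's log ratio the differences of SAUR61 (−0.97, adjusted p = 0.0647) and SAUR62 (−0.94, adjusted p = 0.19) were not called, though larger than the reported −0.54 and −0.50. Of the 48, 15 were lower in both tissues (17.3% of all loci), none was higher in both (15.5% of all loci) and 5 were called in opposite directions (3.33% of all loci): SAUR4, SAUR5, SAUR41, SAUR69 and SAUR72. With median centring SAUR41 was the 1 member called in opposite directions (1.69% of all loci), and without seedling replicate 2 there were 2, SAUR41 and SAUR5, and without seedling replicate 3 there were 3, SAUR4, SAUR5 and SAUR41. A further 13 were lower in seedlings and not called in inflorescences, and 4 were lower in inflorescences and not called in seedlings. In the tissue with no call, neither genotype was above background for 2 of the 13 (SAUR28 and SAUR55) and 3 of the 4 (SAUR25, SAUR39 and SAUR42).

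Seedling and inflorescence ratios of the 48 members correlated with a Pearson r of 0.316 and a Spearman rho of 0.25, against 0.545 and 0.59 over all 21443 loci; these are descriptions across genes of the same 8 arrays. Between arrays of 1 tissue the correlation over the members was 0.751 to 0.95 with the dyes in the same order and 0.754 to 0.913 with the dyes exchanged. Between arrays of different tissues it was 0.0981 to 0.461.

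**Figure D5:**
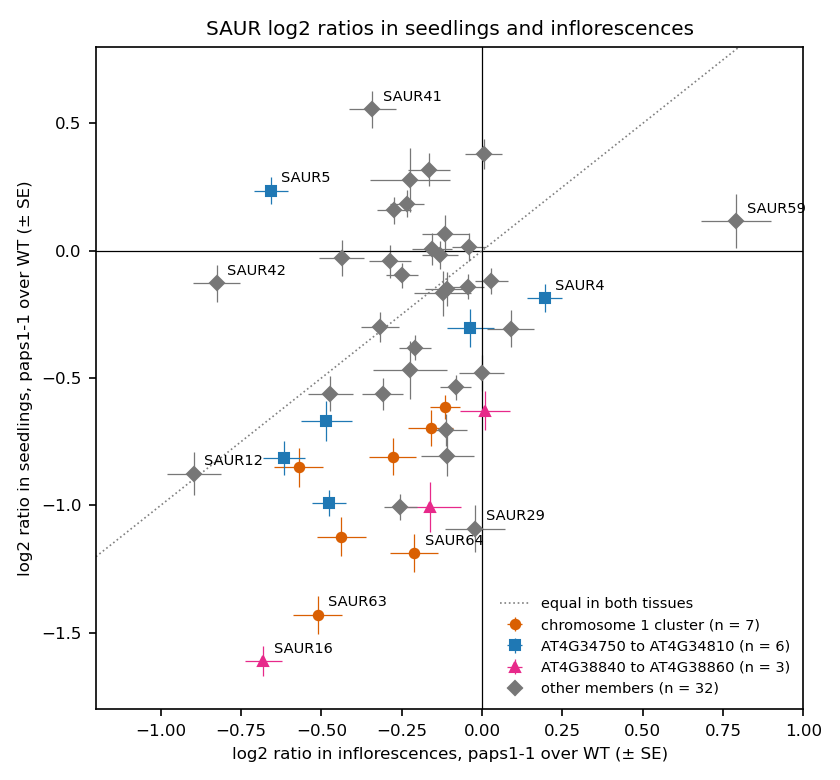
Log2 ratio of paps1-1 over WT in seedlings (vertical axis) against inflorescences (horizontal axis) for the 48 tested SAUR members, with SE bars; colours and shapes mark the tandem clusters, and the dotted line marks equal ratios. The genes of the chromosome 1 cluster lie below the dotted line, SAUR12 lies on it, and SAUR5 and SAUR41 lie in the upper left, higher in seedlings and lower in inflorescences.

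The seedling ratios were also set against the WT levels of the tissues. For 22 members the WT level was at least 1 log2 unit higher in seedlings than in inflorescences, and 18 of these were lower and 1 higher in paps1-1 seedlings, with a median ratio of −0.75. For 11 members the WT level was at least 1 log2 unit lower in seedlings, and 3 of these were lower and 2 higher in paps1-1 seedlings, with a median of −0.03. Of these 11, SAUR25, SAUR39 and SAUR42 were at background in seedlings in both genotypes and not called there. Without them, a choice made after the data were seen, 3 of 8 were lower and 2 higher, with a median of −0.0062. For the 15 members in between, 8 were lower and 3 higher, with a median of −0.17. Over all loci tested, 29.3% were lower and 28.6% higher in seedlings, and the 3 of 11 lower stood near that share. Across the 48 members the seedling ratio correlated with the WT level difference at an r of −0.553 (−0.549 over the 45 members left without those 3), and the inflorescence ratio at an r of 0.195. The WT level stands in both quantities, and the WT levels of the tissues come from different slides, so this is a description only. SAUR28, SAUR37, SAUR40 and SAUR55 were at background in inflorescences in both genotypes and were kept throughout, SAUR28, SAUR37 and SAUR55 among the 22. Their WT level differences are therefore set against background signal.

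Other genes of the pathway were counted in the same way. To set these counts against, 57.9% of all loci were called in seedlings (29.3% lower and 28.6% higher). In inflorescences 53.7% were called (27.5% lower and 26.2% higher). In the SAUR19 to SAUR24 cluster on chromosome 5, all 6 genes were lower in seedlings (median −1.15) and 4 of 6 in inflorescences (median −0.21). SAUR22 and SAUR23 fell by most there in seedlings, at −1.41 ± 0.07 and −1.23 ± 0.06. In inflorescences SAUR21 and SAUR22 had its largest called changes, both at −0.29.

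Of the 9 PP2C.D phosphatase genes, the targets that SAUR proteins inhibit, 3 were lower and 2 higher in seedlings, and 4 were lower and 3 higher in inflorescences. APD7 (AT5G02760) fell most, with −1.55, −1.77, −1.65 and −1.57 on the 4 seedling arrays and an estimate of −1.63 ± 0.05 (limma adjusted p = 5.6e-08). APD6 was lower at −0.53 ± 0.05 in seedlings and −0.54 ± 0.05 in inflorescences, where APD9 was higher at 0.58 ± 0.05. Of the 11 AHA genes, the proton ATPases that these phosphatases switch off, 4 were higher and 1 lower in seedlings, and 5 were higher and 1 lower in inflorescences. AHA7 had the largest increase in seedlings at 0.86 ± 0.10, followed by AHA4 at 0.28 ± 0.06. In inflorescences AHA3 was higher at 0.80 ± 0.10 and AHA9 lower at −0.39 ± 0.08.

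Upstream, 5 of the 6 auxin receptor genes were lower and 1 was higher in seedlings, with TIR1 at −0.50 ± 0.05 and AFB5 at −0.46 ± 0.05. In inflorescences 4 were lower and 1 was higher, with GRH1 (AFB1) at 0.29 ± 0.05 and AFB3 at −0.22 ± 0.04. Of 5 activating auxin response factor genes, 1 was higher and 1 lower in seedlings, MP (ARF5) at 0.44 ± 0.06 and ARF8 at −0.20 ± 0.06, and 2 were higher and 1 lower in inflorescences, where MP stood at 0.28 ± 0.06 and NPH4 (ARF7) at 0.21 ± 0.06. Of 8 genes for light and brassinosteroid factors that act on growth genes, 5 were lower and 2 higher in seedlings, and 5 were lower and 1 higher in inflorescences. PIL5 (PIF1) was lower at −0.85 ± 0.04 and PIL6 (PIF5) at −0.76 ± 0.05 in seedlings. PIF4 was lower at −1.18 ± 0.08 and PIL5 at −0.37 ± 0.04 in inflorescences.

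Markers of other cell types moved in the same samples. Their counts stand against all loci tested, of which 28.6% were higher and 29.3% lower in seedlings, and 26.2% higher and 27.5% lower in inflorescences. In seedlings 13 of 17 tested root markers were higher and 2 lower in paps1-1 (median 0.68), and their summed signal was 14.29 to 14.38 on the log2 scale in paps1-1, against 13.51 to 13.80 in WT. Of 16 photosynthetic markers 12 were lower and 1 higher (median −0.45), with a summed signal of 20.40 to 20.81 in paps1-1 and 20.86 to 21.34 in WT. Their shift varied with the dye, with array medians of −0.39 and −0.22 for paps1-1 in Cy5 against −1.02 and −0.86 in Cy3. Only 7 of the 16 were lower on all 4 seedling arrays. In inflorescences 8 of 10 tapetum markers were higher and 1 lower (median 0.33), with a summed signal of 15.69 to 15.89 in paps1-1 and 15.27 to 15.70 in WT, so that the ranges overlapped. Photosynthetic markers in inflorescences were 6 higher and 4 lower of 16 (median −0.0070), with a summed signal of 20.46 to 20.83 in paps1-1 and 20.50 to 20.84 in WT. Of 9 tested pollen markers 3 were higher and 4 lower in inflorescences, and their summed signal was 14.92 to 15.18 in paps1-1 and 15.45 to 15.66 in WT, with no overlap. The part of these shifts in the SAUR ratios, and in seedlings that of the age gap between genotypes, was not tested.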

How the data were processed

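Signals came from the 8 deposited scanner files, written by Feature Extraction 10.7.3.1 per the file headers, as intensity values of the median spot and median local background in 2 colours with no normalization. The deposited log10 ratio in these files is that software's red over green ratio. The authors' deposited value table holds log2 ratios already turned to paps1-1 over WT, as its correlation with the arrays shows (r of 0.802 to 0.908 after turning). Its column medians ran from −0.02 to 0.018. The submitters' processing notes list limma, with no settings.

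Here, spots were background corrected with normexp (offset 50), normalized by loess within arrays with control and outlier spots at no weight, and turned to paps1-1 over WT (limma 3.58.1, tables read by data.table, release 1.17.8, in R 4.3.3). The offset shrinks ratios of dim probes. A probe was kept when some genotype of some tissue had it well above background on all 4 arrays and 6 or more arrays measured it, and the brightest kept probe stood for a locus. All 8 arrays were fitted with 1 coefficient per tissue and a dye term (5 residual and 4.86 prior degrees of freedom). Levels are single channels after loess and Aquantile scaling. The fit was tested on simulated data. Symbols came from the RefSeq gene table of TAIR10.1, which held 25449 of the loci. The AT1G29490 locus is given without a symbol because that table lists its SAUR68 synonym as the symbol of AT1G29510. No genome build is named in the files, so no positions are given.

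Same-numbered arrays of both tissues deviated together (r of 0.12 to 0.321), and with the dye orientation removed these correlations were −0.00263 to 0.034. The dye orientation splits replicates 1 and 2 from 3 and 4 in both tissues. Removing it also removes anything else shared by those pairs, so the low values cannot exclude a shared batch. The labels name no shared batch, and the numbers were taken as not pairing the samples.

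Members, lists and tests were chosen with earlier results of these data known. Values are given for all tested genes of the 3 tandem clusters; of the others, for the 5 largest called changes per tissue, all members called in opposite directions and the 5 largest called differences; and for the 2 largest called changes of each pathway list per tissue. Alternatives were other background corrections, normalizations, filters, value sources, fits and thresholds, and each array left out; a filter by tissue was added after seeing the data.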

Additional observations from a re-analysis of the deposited data

Results flagged for a closer look

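For 4 members 1 array stood apart from the other 3 of its tissue by Dixon's test. SAUR64 was at 0.12 on inflorescence replicate 2, against −0.34 to −0.31 on the others, and SAUR7 was at 0.11 on inflorescence replicate 4, against −0.11 to −0.08. SAUR72 was at 0.057 on seedling replicate 4, against 0.22 to 0.23, and SAUR55 at −1.15 on seedling replicate 1, against −0.72 to −0.65. The test was run on 89 groups of 4 arrays, and chance alone marks about 1 in 20.

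The difference between the tissues' ratios (seedlings minus inflorescences, limma) was called for 27 members. It was lower in the tandem genes SAUR61 (−0.54), SAUR62 (−0.50), SAUR63 (−0.92), SAUR64 (−0.98), SAUR65 (−0.69), SAUR68 (−0.53), SAUR50 (−0.51), SAUR4 (−0.38), SAUR14 (−0.64), SAUR15 (−0.85) and SAUR16 (−0.93). It was also lower in SAUR26 (−0.75), SAUR28 (−0.48) and SAUR29 (−1.07) of the chromosome 3 row. The same held for SAUR10 (−0.59), SAUR36 (−0.40), SAUR55 (−0.70), SAUR59 (−0.67) and SAUR78 (−0.45). SAUR36 is known as a leaf senescence gene. The difference was higher in SAUR5 (0.89), SAUR41 (0.90), SAUR72 (0.42), SAUR70 (0.48), SAUR42 (0.70), SAUR37 (0.37), SAUR39 (0.41) and SAUR69 (0.43). For SAUR28, SAUR37 and SAUR55 neither genotype was above background in inflorescences, and for SAUR39 and SAUR42 neither was in seedlings, so these 5 differences set a measured ratio against background signal. SAUR61 and SAUR62 were dim in inflorescences too, with paps1-1 above background on 2 arrays and 1 array. With the scanner's log ratio their inflorescence ratios moved to −0.96 and −1.01, and those of SAUR15 and SAUR10 to −0.62 and −0.42. The inflorescence ratio of SAUR26 ran to −0.91 among the alternatives, while its difference ran from −0.96 to −0.62 and stayed called. Over the alternatives other than the stricter threshold, the call of a difference was lost for SAUR55, SAUR39 and SAUR37 in 4 settings each (limma adjusted p = 0.0714 to 0.444, 0.225 to 0.342 and 0.0971 to 0.937). It was lost for SAUR42 in 3 settings (0.0608 to 0.322), in 1 of which its sign changed, and for SAUR36 in 2 (0.0512 and 0.106). With the scanner's log ratio it was lost for SAUR15 (0.079), SAUR61 (0.0647) and SAUR62 (0.19), and with median centring for SAUR70 (0.0578). The differences of these genes were then −0.54, −0.97, −0.94 and 0.43.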

How the results depend on the processing

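Under every alternative run, the counts of members called lower stayed within 1.5 times of those reported and both medians stayed below 0. The median moved to −0.52 in seedlings and −0.30 in inflorescences with normexp offset 0, to −0.65 and −0.38 with the log ratio of the scanner software, and to −0.49 and −0.30 with the deposited value table. In seedlings it was −0.49 with median centring, −0.18 with no filter (56 members), −0.50 with the strict filter (36 members) and −0.48 with the tissue filter. Members called higher were 1 in seedlings and 1 in inflorescences with median centring, 1 in inflorescences at an adjusted p under 0.01, and 1 to 2 in inflorescences when each array was left out in turn. Differences called higher were 5 with normexp offset 0, with the scanner's log ratio and with the strict filter, and 4 with median centring. Over all loci, differences called were 2941 with median centring and 3695 at an adjusted p under 0.01, against 6905. Calls higher made up 32.4% of all calls with median centring, against 49.4%, in seedlings, 39.0% against 48.7% in inflorescences, and 36.5% against 50.7% for the difference. The differences of SAUR12 (−0.69) and SAUR42 (−0.25) changed sign with the scanner's log ratio; the cause was not tested. Of all values of named members under alternatives, 1539 kept their side of the threshold, and with the sign kept 44 lost a call and 21 gained one. The 1539 include values called in neither fit, whose sign could change. The inflorescence ratio of SAUR55, for example, ran from −0.53 to 0.13 without a call. With the replicate number as a block, 30 members were lower and 6 higher in seedlings and 24 lower and 2 higher in inflorescences; the block changed no count by over 1.5 times. Signal over background limits what can be said of dim members.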
